A study of Mus musculus with 15 samples.

Results

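Complement C1q and other complement components made by the cells were followed here as 6 genes, C1qa, C1qb, C1qc, C3, Cfb and Cfp, taken by their gene symbol from a table of 40510 genes. All 6 were found, and all 6 passed the filter on low counts that left 13284 genes for testing. The cells were alveolar macrophages, the resident phagocytes of the air spaces, obtained by bronchoalveolar lavage and sorted as CD45+ Ly6G- SiglecF+ CD11c+ cells with high or low CD11b. The 15 libraries fell into 5 groups of 3, namely CD11b-high Cybb knockout cells at 12 weeks of age, CD11b-low Cybb knockout cells at 12 weeks, CD11b-low wild-type cells at 12 weeks, CD11b-low knockout cells at 4 weeks and CD11b-low wild-type cells at 4 weeks. All mice were C57BL/6 and labelled naive. The knockout is labelled CGD/CYBB KO, and Cybb encodes the NADPH oxidase subunit whose loss causes chronic granulomatous disease. The lavage of 2 to 3 mice was pooled for each library, to reach about 50000 cells, and no CD11b-high library of wild-type or 4-week mice was analysed here.

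C1q is the recognition molecule of the classical pathway of complement. It is built from A, B and C chains and is made largely by macrophages and some dendritic cells rather than by the liver. C3 is the protein on which the complement pathways converge, factor B (Cfb) supplies the protease of the alternative pathway's C3 convertase, and properdin (Cfp) stabilises that convertase. Resident alveolar macrophages are known for little C1q, whereas interstitial macrophages of the lung express it strongly.

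The C1q chain genes lie side by side on the minus strand of mouse chromosome 4, in the coordinate order C1qb, C1qc and C1qa, within 18675 bases (GRCm38, chr4:136880129-136898803). C3 (ENSMUSG00000024164, chr17:57203970-57228136) and Cfb (ENSMUSG00000090231, chr17:34856374-34862518) are on chromosome 17, and Cfp (ENSMUSG00000001128, chrX:20925454-20931555) is on the X chromosome, each on the minus strand. All are annotated as protein coding. An annotated read-through gene, Gm20547, shares 2246 exon bases with Cfb, or 79.5% of the exon bases of Cfb, on the same strand. Gm20547 had 0 counts in the 15 libraries, and how reads shared by both genes were counted is not given in the sources used here, so the level of Cfb is uncertain to that extent.

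Upstream sequences were searched because genes of MAF and PU.1 factors, whose levels are given further on, are linked to C1q genes. Those of C1qb and C3, which held matches, are shown. That of Cfp, which also differed between groups but held no match, is not shown. RefSeq windows (GRCm38.p6) of 250 bases before the annotated start were read for 3 members, C1qb, C3 and Cfp, and both strands were searched for 6 motifs. These were TGCTGA, a MAF half-site, GAGGAA, the PU.1 core, TTGCNNAA, a C/EBP core, TTCNNNGAA, the interferon-gamma activated site, the interferon-stimulated response element and the NF-kappaB consensus. Capitals mark the matches.
C1qb (chr4:136886201-136886450, minus strand): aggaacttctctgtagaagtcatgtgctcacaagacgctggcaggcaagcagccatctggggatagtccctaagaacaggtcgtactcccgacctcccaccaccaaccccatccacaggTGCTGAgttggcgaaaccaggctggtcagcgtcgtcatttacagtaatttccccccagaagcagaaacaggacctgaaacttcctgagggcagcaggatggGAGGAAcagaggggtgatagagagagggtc
C3 (chr17:57228137-57228386, minus strand): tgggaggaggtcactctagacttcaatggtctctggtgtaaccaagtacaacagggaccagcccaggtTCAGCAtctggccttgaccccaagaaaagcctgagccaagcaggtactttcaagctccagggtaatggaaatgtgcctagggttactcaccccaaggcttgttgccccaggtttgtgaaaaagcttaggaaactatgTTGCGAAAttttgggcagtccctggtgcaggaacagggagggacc
The C1qb window held TGCTGA at 131 to 126 bases and GAGGAA at 30 to 25 bases before the start. The C3 window held TGCTGA on the opposite strand at 182 to 177 bases and TTGCGAAA, a match to TTGCNNAA, at 45 to 38 bases before the start. The Cfp window (chrX:20931556-20931805) held none of the 6. Of 27025 promoter windows of the same length, 15.8% held TGCTGA, 23.1% held GAGGAA and 9.55% held TTGCNNAA, so each match is a common one. The shares for the other motifs were 3.75% for NF-kappaB, 7.18% for TTCNNNGAA and 3.04% for the interferon-stimulated response element. The matches are letters in a window, not measured binding sites.

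The libraries held 22856331 to 36458893 counts in genes. Cybb was at 129 to 221 CPM (counts scaled to a common library size with edgeR's TMM factors, as are all levels here) in the 9 knockout libraries, against 899 to 2318 CPM in the 6 wild-type libraries, which matches the genotype labels. The 15 alveolar macrophage markers, among them Siglecf, Marco and Chil3, were detected in every library and summed to 39016 to 77175 CPM. Chil3 led this sum in every group, at 63.0% to 76.7% of it, and without Chil3 the sums were 13005 to 20458 CPM. At an edgeR adjusted p under 0.05, 2 of the 15 rose and 4 fell in CD11b-high knockout against wild-type cells at 12 weeks. The shares of all genes tested were 9.23% upward and 5.6% downward. In CD11b-low knockout cells of that age none rose and 2 fell against the same wild-type cells, where the shares were 2.6% and 0.497%. Fibroblast markers summed to at most 1.02 CPM. Lung epithelial markers summed to 640 to 1872 CPM over the 15 libraries, with Krt19 as the leading gene in every group. Without Krt19 the sums were 47.5 to 83.9 CPM in CD11b-low knockout and 86.7 to 157 CPM in wild-type cells at 12 weeks. Of the 12 of these 15 markers tested, none rose and 1 fell in those knockout cells, where the shares were again 2.6% and 0.497%. The part of these markers in the results of the members was not tested. Ly6g, the gene of the marker used to gate out neutrophils, was at 0 in all libraries. Of the 6 eosinophil markers Epx and Prg3 were at 0 in all libraries, whereas Ear6 was at 307 to 1201 CPM in CD11b-high knockout cells and 124 to 683 CPM in CD11b-low knockout cells at 12 weeks, against 10.7 to 16.5 CPM in wild-type cells at 12 weeks. Replicate 1 of the wild-type group at 12 weeks stood apart in several complement genes, with the lowest level of its group in Cfb, Cfp, C5ar1 and C5ar2.

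The C1q chain genes were high in the CD11b-high knockout cells. C1qb, the chain gene with the most counts, was at 3.87, 73.3 and 41.3 CPM in CD11b-high knockout replicates 1 to 3. It was at 0.976, 1.22 and 2.25 CPM in CD11b-low knockout cells at 12 weeks, and at 0.0805, 0.0636 and 0.365 CPM in wild-type cells at 12 weeks. At 4 weeks it was at 0.263, 0.0846 and 0.0478 CPM in knockout cells, against 0.0528, 0.0686 and 0.0302 CPM in wild-type cells. The CD11b-high libraries thus lay above all others, the CD11b-low knockout libraries of 12 weeks lay above every wild-type library and every 4-week library, and the other groups overlapped.

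C1qa, the A chain gene, had 16, 146 and 176 counts in the CD11b-high libraries, or 0.652, 6.84 and 5.45 CPM. No other library held more than 3 counts of it, and the 3 knockout libraries of 4 weeks held none. A floor of 3 counts corresponds to 0.0717 to 0.0846 CPM in those 3 libraries, which is the level of C1qa that a count of 0 allows. C1qc, the C chain gene, was at 0.530, 5.58 and 2.45 CPM in the CD11b-high libraries, against 0, 0.0596 and 0.881 CPM in CD11b-low knockout cells and 0.241, 0 and 0.0456 CPM in wild-type cells at 12 weeks. Replicate 3 of the CD11b-low knockout group held 27 counts of C1qc, more than the 13 counts in replicate 1 of the CD11b-high group, so these groups overlapped. At 4 weeks C1qc had 1 count in 1 wild-type library and none in the other 5 libraries.

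**Figure D1:**
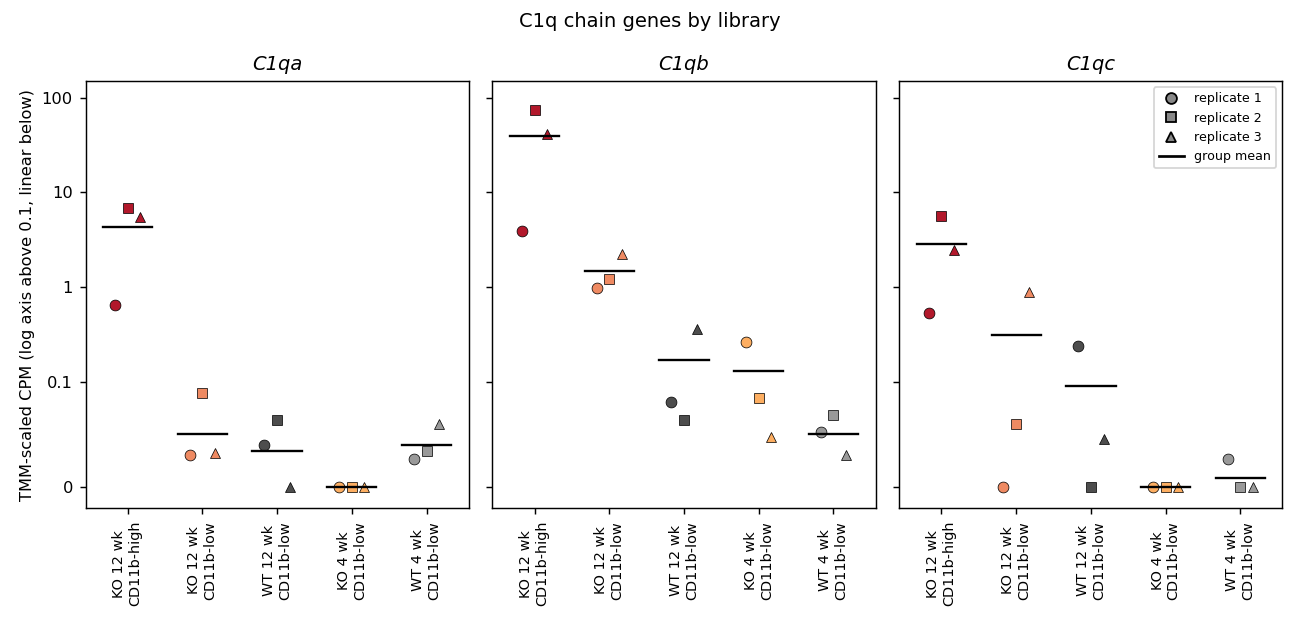
Levels of the C1q chain genes in TMM-scaled CPM (vertical axis, logarithmic above 0.1 and linear below) by group (horizontal axis), with 1 point per library shaped by replicate number and a line at the group mean. The CD11b-high libraries sit highest for C1qa and C1qb, with replicate 1 far below replicates 2 and 3, and C1qb of the CD11b-low knockout cells at 12 weeks sits above the remaining groups.

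Against CD11b-low knockout cells of the same age, CD11b-high cells had 2 of the 6 members called higher, C1qa and C1qb, and none lower, at an adjusted p under 0.05 (edgeR's quasi-likelihood test with Benjamini-Hochberg adjustment over all genes tested). The same call was made for 0.693% of all genes tested in either direction, 0.572% upward and 0.12% downward. C1qa averaged 4.31 ± 3.25 CPM in CD11b-high cells, against 0.0508 CPM in CD11b-low cells, a log2 fold change of 6.29 (SE 0.91, edgeR adjusted p = 0.00591). C1qb averaged 39.5 ± 34.8 CPM, against 1.48 ± 0.676 CPM (SD, n = 3 each), a log2 fold change of 4.73 (SE 0.79, edgeR adjusted p = 0.0133). C1qc had a log2 fold change of 3.18 (SE 1.17) that missed the threshold (edgeR adjusted p = 0.316). C1qa passed the filter on low counts through the CD11b-high libraries alone, and C1qc through those and 1 other library, so a difference in that direction was built into their being tested. C1qb also reached the filter level of 0.308 CPM in 5 libraries outside the CD11b-high group.

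The CD11b-high and CD11b-low knockout libraries were also taken as paired by their numbers, which the check given with the methods does not settle. With the number as a block, C1qa kept its call (log2 6.22, edgeR adjusted p = 0.00151), C1qb lost it (log2 4.17, edgeR adjusted p = 0.09) and Cfp gained one (log2 -0.88, edgeR adjusted p = 0.0386). The count of all genes called was then 252, against 92 without the block. With the CD11b-high and CD11b-low knockout groups alone in the fit and no block, neither C1qa nor C1qb was called (edgeR adjusted p = 0.0508 and 0.129). Without replicate 2 of the CD11b-low knockout group their edgeR adjusted p was 0.0684 and 0.0976, and without its replicate 3 it was 0.061 and 0.0629. Without CD11b-high replicate 2 the log2 value of C1qb was 3.93 (edgeR adjusted p = 0.0449).

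Summed over the libraries of a group, C1qb was 26.2-fold higher in CD11b-high than in CD11b-low knockout cells (95% exact interval 22.1 to 31.2) and 250-fold higher than in wild-type cells at 12 weeks (143 to 484). C1qa was 83.9-fold higher than in CD11b-low knockout cells (35.6 to 260) and 113-fold higher than in wild-type cells, which held 3 counts in all (38.2 to 549). These intervals cover counting error alone and not the spread between libraries. Without CD11b-high replicate 2 the C1qb ratios were 17.2-fold over CD11b-low knockout cells and 164-fold over wild-type cells, and without wild-type replicate 3, which held 8 of the 12 wild-type counts, the second was 539-fold. Without replicate 2 of the CD11b-low knockout group the C1qa ratio was 137-fold, and without wild-type replicate 2 it was 202-fold over wild-type cells, which then held 1 count. Among same-numbered libraries the CD11b-high minus CD11b-low difference in log2 CPM was 1.92, 5.83 and 4.16 for C1qb and 2.92, 5.49 and 5.84 for C1qa. The direction was shared by the 3 pairs and the size was smallest in replicate 1 for both.

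Within the CD11b-high group the 3 chain genes summed to 5.05, 85.7 and 49.2 CPM in replicates 1 to 3, against 1.01, 1.37 and 3.16 CPM in the CD11b-low knockout libraries. C1qb made up 76.6%, 85.5% and 84.0% of the C1q counts in the CD11b-high libraries (Clopper-Pearson 95% intervals 68.2 to 83.7%, 83.8 to 87.1% and 82.1 to 85.7%). Per kilobase of annotated exon, C1qb averaged 36.3 ± 32.0 CPM per kb in CD11b-high cells, C1qa 4.15 ± 3.12 and C1qc 1.48 ± 1.32 (SD, n = 3 each). On this scale the chain genes were at unequal levels, with C1qb the highest in each of the 3 libraries.

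Several genes had the same order over the CD11b-high replicates as C1q, low in replicate 1 and highest in replicate 2. Itgam, which encodes CD11b and so belongs to the gate, was at 30.7, 88.4 and 61.5 CPM. Dendritic cell markers summed to 35.7, 211 and 94.0 CPM, with Ccr7 as the leading gene, against 5.81 to 40.7 CPM in the other 12 libraries. All 12 of these markers were tested, and in CD11b-high cells 7 rose and none fell against wild-type cells at 12 weeks. The shares of all genes tested in that comparison were 9.23% upward and 5.6% downward. Against CD11b-low knockout cells none of the 12 was called, where 0.693% of all genes were called. The 15 markers of monocytes and interstitial macrophages, Csf1r, Ccr2 and Selenop among them, summed to 1410, 1580 and 1533 CPM, against 943 to 2049 CPM in the other 12 libraries. Selenop led this sum in every group, and without it the markers summed to 787, 981 and 891 CPM, against 478 to 967 CPM in the other 12 libraries, so replicate 2 lay above them. Of the 13 of these markers tested, 5 rose and 1 fell in CD11b-high cells against wild-type cells at 12 weeks, where 9.23% of all genes tested were called upward and 5.6% downward. Against CD11b-low knockout cells none of the 13 rose and 1 fell, where 0.572% of all genes were called upward and 0.12% downward. Ly6c2 and Pf4, picked after their values were seen, were among the 5 that rose. Ly6c2 was at 1.63, 4.50 and 3.31 CPM in CD11b-high cells, 0.945, 1.49 and 0.750 CPM in CD11b-low knockout cells and 0.241, 0.255 and 0.0912 CPM in wild-type cells at 12 weeks. Pf4 was at 50.5, 68.6 and 33.5 CPM in CD11b-high cells, 35.5, 12.0 and 18.5 CPM in CD11b-low knockout cells and 9.29, 6.94 and 6.89 CPM in wild-type cells. Fcgr1, a marker of the same list, went the other way, at 40.1, 57.7 and 41.0 CPM in CD11b-high cells. In CD11b-low knockout cells Fcgr1 was at 72.9, 93.5 and 114 CPM, and in wild-type cells at 137, 173 and 138 CPM. Neutrophil markers summed to 452 to 520 CPM in CD11b-high cells, against 183 to 259 CPM in CD11b-low knockout cells and 93.4 to 133 CPM in wild-type cells at 12 weeks, with Ly6g at 0. S100a8 led that sum in CD11b-high cells and Mmp8 in both other groups. Eosinophil markers summed to 1201, 321 and 429 CPM in CD11b-high replicates 1 to 3, highest in replicate 1 and nearly all of it Ear6, and replicate 2 also held Prg2 at 8.71 CPM and Ccr3 at 4.78 CPM. The part of any of these in the C1q result was not tested. In sorted pools of this kind, fewer cells of a type and less RNA per cell cannot be told apart.

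Against wild-type cells at 12 weeks, CD11b-high knockout cells differed in all 6 members, with 5 higher and 1 lower, where 14.8% of all genes tested were called, 9.23% upward and 5.6% downward. CD11b-high cells exist here for the knockout alone, so genotype and CD11b gate cannot be told apart in this comparison. C1qb was higher by 7.93 on the log2 scale (SE 0.99, edgeR adjusted p = 6.33e-05), C1qa by 6.70 (SE 0.97, edgeR adjusted p = 0.000299) and C1qc by 4.88 (SE 1.35, edgeR adjusted p = 0.025). As given above, C1qa and C1qc passed the filter through the CD11b-high libraries alone or with 1 other, so their being higher here was built into their being tested, and C1qb, C3, Cfb and Cfp are the members without that limit. Without wild-type replicate 3 the log2 value of C1qb was 9.03 and without CD11b-high replicate 2 it was 7.12. Without wild-type replicate 2 that of C1qa was 7.41, and without wild-type replicate 1 that of C1qc was 6.93. The call for C1qc was lost without CD11b-high replicate 2 (edgeR adjusted p = 0.126), without wild-type replicate 2 or 3 (0.0848 and 0.0747) and with DESeq2 (adjusted p = 0.0806).

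In CD11b-low cells at 12 weeks, C1qb lay above all wild-type libraries in all 3 knockout libraries, by 3.20 on the log2 scale (SE 0.95), and missed the threshold (edgeR adjusted p = 0.0823). It passed with DESeq2 (log2 3.15, adjusted p = 0.038) and with no filter on low counts (log2 3.20, edgeR adjusted p = 8.49e-09). The fit with no filter called 1090 genes in all, against 412 in the main fit. C1qb was called in 0 of the 6 fits that left out 1 of the libraries compared (edgeR adjusted p = 0.0723 to 0.26). Of all 11 alternatives run, C1qb stayed uncalled in 8. Its counts were 32, 41 and 69 in knockout cells, against 2, 2 and 8 in wild-type cells. With age in knockout CD11b-low cells, C1qb was higher at 12 than at 4 weeks by 3.46 (SE 0.91, edgeR adjusted p = 0.0339). That call rests on few counts, 10, 3 and 2 at 4 weeks (log2 4.42 without replicate 1 of 4 weeks), and was lost in 5 of the 6 fits that left out 1 of the libraries compared, at an adjusted p of up to 0.148. Between the genotypes at 4 weeks, C1qb had a log2 fold change of 1.32 (SE 1.38, edgeR adjusted p = 1).

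C3 was one of the more abundant transcripts of these cells, with a mean above that of 91.8% of the genes tested. It was at 182, 213 and 145 CPM in CD11b-high knockout cells, 165, 178 and 121 CPM in CD11b-low knockout cells at 12 weeks and 75.8, 31.8 and 43.3 CPM in wild-type cells at 12 weeks. At 4 weeks it was at 143, 191 and 166 CPM in knockout cells, against 119, 91.8 and 163 CPM in wild-type cells. The wild-type libraries of 12 weeks lay below the other 12 libraries, which overlapped one another.

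In CD11b-low cells at 12 weeks, 2 of the 6 members were called between the genotypes, C3 and Cfb, both higher in knockout cells, where 3.1% of all genes tested were called, 2.6% upward and 0.497% downward. C3 averaged 155 ± 30.1 CPM in knockout cells, against 50.3 ± 22.9 CPM in wild-type cells (SD, n = 3 each), which was 3.08-fold higher or 1.62 on the log2 scale (SE 0.31, edgeR adjusted p = 0.0063). The call held in every fit that was run, with log2 values between 1.38 and 2.04. In CD11b-high knockout cells C3 was higher than in the same wild-type libraries by 1.84 (SE 0.31, edgeR adjusted p = 0.00071). Between CD11b-high and CD11b-low knockout cells it had a log2 fold change of 0.22 (SE 0.30, edgeR adjusted p = 0.889).

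With age, C3 was the 1 member called in wild-type cells, where 17.2% of all genes tested were called, 8.79% upward and 8.39% downward. It fell to 50.3 ± 22.9 CPM at 12 weeks, against 125 ± 35.7 CPM at 4 weeks (SD, n = 3 each), a log2 fold change of -1.31 (SE 0.30, edgeR adjusted p = 0.00891). The call was lost without wild-type replicate 3 of 4 weeks (edgeR adjusted p = 0.0516). In knockout cells C3 had a log2 fold change with age of -0.11 (SE 0.30, edgeR adjusted p = 0.87). The difference between the age effects was 1.20 on the log2 scale (SE 0.42, edgeR adjusted p = 0.392), so a difference between the genotypes in the change with age was not shown.

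Cfb had the largest genotype difference of the 3 abundant members in CD11b-low cells at 12 weeks. Its levels were 51.8, 50.1 and 40.1 CPM in CD11b-high knockout cells, 40.5, 39.0 and 56.2 CPM in CD11b-low knockout cells and 1.85, 7.13 and 8.67 CPM in wild-type cells at 12 weeks. At 4 weeks they were 13.9, 17.1 and 12.7 CPM in knockout cells, against 9.99, 9.81 and 9.61 CPM in wild-type cells. The order of the groups was thus both 12-week knockout groups, which overlapped, then knockout cells of 4 weeks, wild-type cells of 4 weeks and wild-type cells of 12 weeks, and none of the last 3 overlapped another group.

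At 12 weeks Cfb averaged 45.2 ± 9.57 CPM in CD11b-low knockout cells and 5.88 ± 3.58 CPM in wild-type cells (SD, n = 3 each), 7.69-fold higher in the knockout or 2.94 on the log2 scale (SE 0.39, edgeR adjusted p = 0.000329). Without wild-type replicate 1, the lowest library, the log2 value was 2.52 (edgeR adjusted p = 5.79e-05), and the call held in every fit that was run. CD11b-high knockout cells were higher than wild-type cells by 3.01 (SE 0.39, edgeR adjusted p = 6.15e-05). Between CD11b-high and CD11b-low knockout cells the log2 fold change was 0.07 (SE 0.36, edgeR adjusted p = 0.98).

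At 4 weeks none of the 6 members was called between knockout and wild-type cells by edgeR or DESeq2, and none had an unadjusted p under 0.05, where 0.0979% of all genes tested were called by edgeR, 0.0151% upward and 0.0828% downward. Cfb averaged 14.6 ± 2.28 CPM in knockout cells and 9.80 ± 0.189 CPM in wild-type cells (SD, n = 3 each), without overlap, a log2 fold change of 0.57 (SE 0.36, edgeR adjusted p = 1). C3 had a log2 fold change of 0.42 (SE 0.30) and Cfp one of -0.14 (SE 0.26), both with an edgeR adjusted p of 1.

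With age in knockout CD11b-low cells 2 of the 6 members were called, C1qb and Cfb, both higher at 12 weeks, where 6.89% of all genes tested were called, 4.81% upward and 2.08% downward. Cfb was higher by 1.63 on the log2 scale (SE 0.37, edgeR adjusted p = 0.0135), and the call was lost without knockout replicate 3 of 12 weeks (edgeR adjusted p = 0.0641) and without replicate 1 or 3 of 4 weeks (0.0649 and 0.0837). In wild-type cells Cfb was lower at 12 weeks in all libraries, by a log2 fold change of -0.74 (SE 0.37) that missed the threshold (edgeR adjusted p = 0.177). Without wild-type replicate 1 of 12 weeks that value was -0.31.

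No member was called for the difference between the age effects of the genotypes, where 0.248% of all genes tested were called by edgeR, all of them upward. For Cfb it was 2.37 on the log2 scale (SE 0.52, edgeR adjusted p = 0.0666). C3 and Cfb had an unadjusted p under 0.05. DESeq2 called 1 member, Cfb (adjusted p = 0.00211).

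T and NK cell markers also stood apart between the same groups as Cfb. They summed to 75.1 to 215 CPM in CD11b-low knockout cells at 12 weeks, against 4.43 to 8.97 CPM in wild-type cells at 12 weeks and 1.63 to 3.24 CPM in knockout cells at 4 weeks, and Cxcr6 led the sum in the 12-week knockout cells. Of the 12 of 13 such markers tested, 7 rose in CD11b-low knockout cells over the wild type at 12 weeks, where 2.6% of all genes tested were called upward. Eosinophil markers summed to 124 to 683 CPM in those knockout cells, against 10.7 to 16.5 CPM in wild-type cells at 12 weeks and 14.0 to 34.7 CPM in knockout cells at 4 weeks. Ear6 made up nearly all of each sum, and it was the 1 of 2 tested that rose at 12 weeks (log2 4.72, edgeR adjusted p = 0.000717). B and plasma cell markers summed to 9.13 to 35.7 CPM in those knockout cells, against 2.87 to 9.29 CPM in the wild type. Erythroid markers were higher in wild-type cells, with sums of 68.6 to 146 CPM in CD11b-low knockout cells, against 571 to 1309 CPM in wild-type cells at 12 weeks. At 4 weeks the sums were 45.8 to 151 CPM in knockout cells, against 1652 to 7491 CPM in wild-type cells. All 7 erythroid markers were called lower at 12 than at 4 weeks in wild-type cells, where 8.39% of all genes tested were called downward. The part of any of these marker groups in the differences of C3 and Cfb was not tested.

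Cfp had the highest mean per length of the 6 members in each of the 5 groups. It averaged 94.4 ± 12.8 CPM per kb in CD11b-high cells, against 176 ± 19.5 in CD11b-low knockout cells and 234 ± 81.4 in wild-type cells at 12 weeks (SD, n = 3 each). C3 was at 35.0 ± 6.59, 30.1 ± 5.86 and 9.78 ± 4.44 CPM per kb in the same groups, and Cfb at 16.8 ± 2.25, 16.0 ± 3.39 and 2.08 ± 1.27. In CPM, Cfp was at 140, 169 and 183 in CD11b-high libraries, 297, 276 and 342 in CD11b-low knockout libraries and 249, 523 and 448 in wild-type libraries at 12 weeks. At 4 weeks it was at 364, 252 and 314 CPM in knockout cells, against 392, 305 and 330 CPM in wild-type cells. The CD11b-high libraries lay below all other libraries, and the 4 CD11b-low groups overlapped.

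Cfp fell in CD11b-high knockout cells against wild-type cells at 12 weeks, with a log2 fold change of -1.31 (SE 0.26, edgeR adjusted p = 0.00275). Against CD11b-low knockout cells it had a log2 fold change of -0.90 (SE 0.26) that missed the threshold (edgeR adjusted p = 0.148). It was called in the fit given above with the number as a block. The same-numbered differences in log2 CPM were -1.09, -0.71 and -0.90. In CD11b-low cells Cfp had a log2 fold change of -0.42 between the genotypes at 12 weeks (SE 0.26, edgeR adjusted p = 0.364), -0.02 with age in knockout cells (SE 0.26) and 0.25 with age in wild-type cells (SE 0.26), the last 2 with edgeR adjusted p of 0.97 and 0.549.

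**Figure D2:**
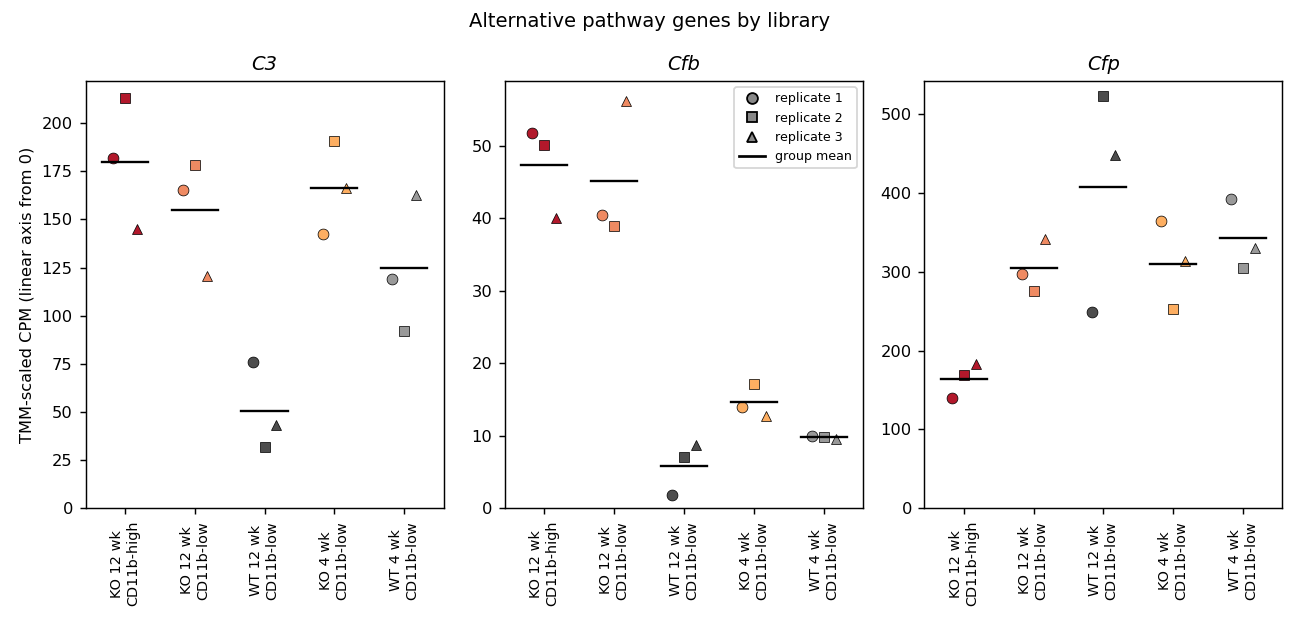
Levels of C3, Cfb and Cfp in TMM-scaled CPM (vertical axes, linear from 0) by group (horizontal axis), with 1 point per library shaped by replicate number and a line at the group mean. Wild-type cells at 12 weeks have the lowest C3 and Cfb, at group means of 50.3 and 5.88 CPM, and the CD11b-high knockout cells have the lowest Cfp, at 164 CPM.

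**Figure D3:**
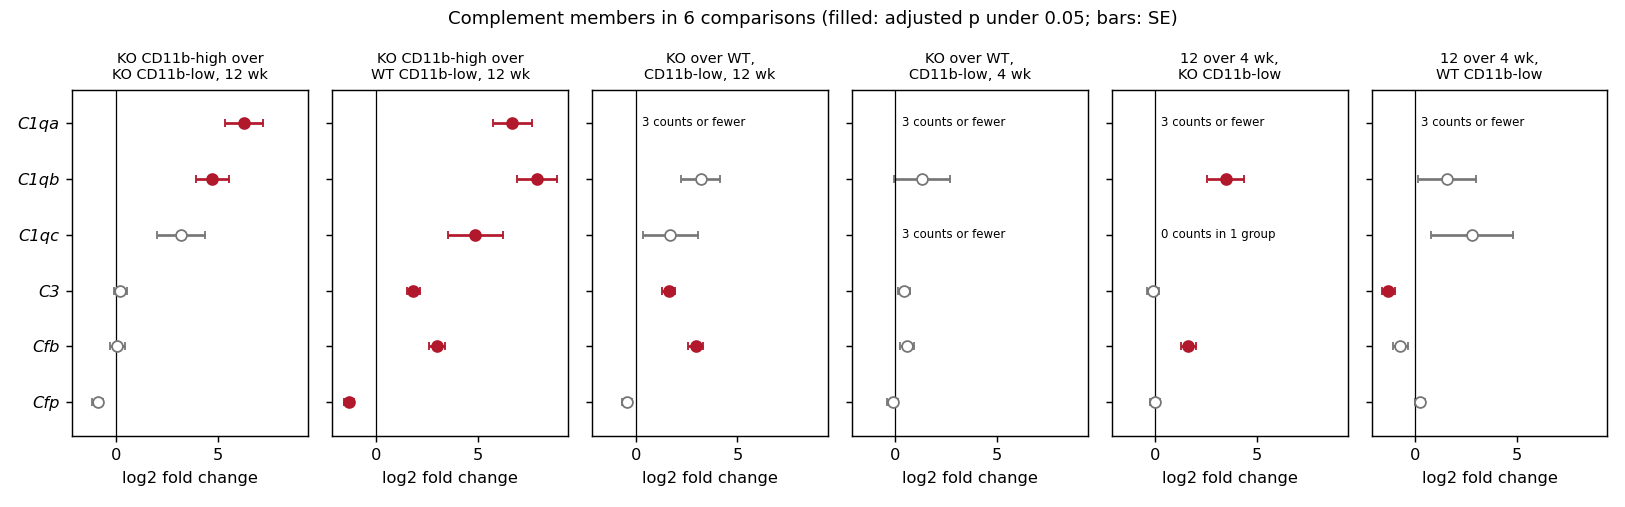
Log2 fold changes (horizontal axis) of the 6 members in 6 comparisons, each titled as one group over another, with bars of 1 SE and filled points where the edgeR adjusted p was under 0.05. Points are left out where a group had no counts or both groups had 3 counts or fewer in every library. C1qa and C1qb stand far to the right in CD11b-high cells, C3 and Cfb in the 12-week knockout against wild-type cells, and Cfp is to the left in CD11b-high cells.

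The comparisons with wild-type cells at 12 weeks share those 3 libraries, and 4 of the comparisons share the CD11b-low knockout libraries of 12 weeks, so their values for the members are not independent of each other. The median log2 fold change of the 6 members was 1.66 in CD11b-low knockout against wild-type cells at 12 weeks and 0.14 at 4 weeks, beside medians of -0.04 and -0.01 over all genes tested. It was 1.70 for CD11b-high against CD11b-low knockout cells, beside 0.01, and 3.95 against wild-type cells at 12 weeks, beside -0.01. Both medians of CD11b-high cells include C1qa and C1qc, whose being higher there was built into their being tested. They are thus no result about the members as a set. With age the median was 2.55 in knockout cells and 0.08 in wild-type cells, beside -0.02 and -0.03. The fitted values of C1qa and C1qc rest on few or no counts in the CD11b-low groups. With a group at 0 counts set to a floor of 3 counts per library, and members without a fold at that floor left out, the medians were 1.70 for the 12-week genotype over 5 members, 0.50 for the 4-week genotype over 4, and with age 1.63 in knockout cells and 0.25 in wild-type cells over 5 each.

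Of the rest of the pathway little was detected. Of 15 other genes of the classical and lectin pathways 4 were tested, and Mbl1, Mbl2 and Colec10, which encode lectins of the liver, were at 0 in all libraries. C1ra, a protease that associates with C1q, was the highest of them at 13.8 ± 3.16 CPM in CD11b-high knockout cells, 18.3 ± 4.51 CPM in CD11b-low knockout cells and 14.99 ± 6.97 CPM in wild-type cells at 12 weeks (SD, n = 3 each), and it was called in none of the 7 comparisons. C2, the protease of the classical convertase, which also shares the read-through gene with Cfb, was at 4.16, 1.64 and 1.70 CPM in CD11b-high cells, against 0.563, 0.668 and 0.502 CPM in wild-type cells at 12 weeks. That difference was 2.10 on the log2 scale (SE 0.49, edgeR adjusted p = 0.00792) and kept its call when any 1 library was left out. C2 also rose with age in knockout cells (log2 1.64, edgeR adjusted p = 0.0463), a call lost in 5 of 6 fits without 1 library. Of 8 genes of the alternative and terminal pathways C8g alone was tested, at 2.78 ± 0.578 CPM in CD11b-high cells and 4.35 ± 0.814 CPM in wild-type cells at 12 weeks (SD, n = 3 each), with no call in any comparison, and C6, C7, C8b and C9 were at 0.

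Among 14 regulators 5 were tested. Cr1l, the mouse gene of the membrane regulator Crry, was the highest at 138 ± 20.5 CPM in CD11b-high knockout cells, 138 ± 31.0 CPM in CD11b-low knockout cells and 133 ± 46.2 CPM in wild-type cells at 12 weeks (SD, n = 3 each). It was called in none of the 7 comparisons.

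Of 14 complement receptors and C1q binding proteins 12 were tested. Between the genotypes at 12 weeks 1 of the 12 rose in CD11b-low knockout cells and none fell, where 2.6% of all genes tested were called upward and 0.497% downward. The gene was Cd93, a membrane lectin first described as a C1q receptor. It was at 103, 38.1 and 41.7 CPM in knockout cells, against 8.85, 11.8 and 10.1 CPM in wild-type cells, which is 2.58 on the log2 scale (SE 0.37, edgeR adjusted p = 0.000729). In wild-type cells it fell with age by 1.77 on the log2 scale (edgeR adjusted p = 0.00524), with 34.4, 29.2 and 41.5 CPM at 4 weeks. Both Cd93 calls held when any 1 library was left out, and the 12-week wild-type libraries were the lowest of the 15, as they were for C3.

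C3ar1, the receptor of the C3a fragment, was at 17.9, 47.9 and 25.3 CPM in CD11b-high knockout cells, 6.10, 3.76 and 5.22 CPM in CD11b-low knockout cells and 1.49, 0.827 and 2.28 CPM in wild-type cells at 12 weeks. It rose by 2.59 in CD11b-high against CD11b-low knockout cells (SE 0.54, edgeR adjusted p = 0.0325), a call kept in 1 of 6 fits without 1 library, and by 4.32 against wild-type cells (SE 0.59, edgeR adjusted p = 0.000108), kept in all 6. With age in knockout cells it rose by 2.75 (edgeR adjusted p = 0.00919, kept in 4 of 6). In CD11b-high against CD11b-low knockout cells 2 of the 12 rose and none fell, C3ar1 and the gate marker Itgam, where 0.572% of all genes tested were called upward and 0.12% downward.

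C5ar1, the receptor of C5a, was at 163, 422 and 279 CPM in CD11b-high knockout cells, against 253, 1188 and 1291 CPM in wild-type cells at 12 weeks. It fell by 1.66 on the log2 scale (edgeR adjusted p = 0.0257), although the groups overlapped through wild-type replicate 1, and the call was kept in 2 of 6 fits without 1 library. In that comparison 5 of the 12 rose and 2 fell, where 9.23% of all genes tested were called upward and 5.6% downward. With C3ar1 the genes that rose were Cd93 (log2 3.22, edgeR adjusted p = 2.99e-05) and the integrin chains of the complement receptors for C3 fragments. These were Itgam (log2 5.27, edgeR adjusted p = 2.43e-06), Itgb2 (log2 1.01, edgeR adjusted p = 0.0369, kept in 3 of 6) and Itgax (log2 0.93, edgeR adjusted p = 0.0445, kept in 1 of 6). Vsig4, the receptor CRIg of resident macrophages for C3 fragments, had no counts in the CD11b-high libraries, where 3 counts would be 0.0929 to 0.141 CPM, against 0.322, 0.0318 and 0.502 CPM in wild-type cells, and its call was kept in 1 of 6. In wild-type cells C5ar2, the second C5a receptor, fell with age by 1.20 on the log2 scale (edgeR adjusted p = 0.0168, kept in 4 of 6), and Cd93 and C5ar2 were the 2 of 12 called. That share is near the 17.2% of all genes tested that were called with age in wild-type cells. With age in knockout cells, where 4.81% of all genes were called upward, C3ar1 and Itgam rose, Itgam by 1.58 (edgeR adjusted p = 0.0339, kept in 2 of 6), and at 4 weeks none of the 12 was called between the genotypes.

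All 8 transcription factors linked to C1q genes were tested. Maf, which encodes c-MAF, was at 2.81, 6.89 and 2.35 CPM in CD11b-high knockout cells, 4.06, 8.38 and 2.15 CPM in CD11b-low knockout cells and 1.25, 0.477 and 0.228 CPM in wild-type cells at 12 weeks. It rose in CD11b-low knockout against wild-type cells by 2.89 (SE 0.64, edgeR adjusted p = 0.0188, kept in 3 of 6 fits without 1 library) and with age in knockout cells by 3.76 (SE 0.66, edgeR adjusted p = 0.00313, kept in all 6). Its ranges in the CD11b-high and CD11b-low knockout libraries overlapped.

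Spi1, the gene of PU.1, was at 21.0, 18.4 and 20.7 CPM in CD11b-high cells, against 58.1, 32.5 and 32.3 CPM in wild-type cells at 12 weeks, and fell by 1.03 on the log2 scale (edgeR adjusted p = 0.00927, kept in 5 of 6). In that comparison Maf rose (log2 2.61, edgeR adjusted p = 0.0111, kept in 5 of 6) and 3 of the 8 factors fell, Spi1, Ppard (log2 -1.38, edgeR adjusted p = 0.0374, kept in 3 of 6) and Rxra (log2 -0.74, edgeR adjusted p = 0.0484, kept in 1 of 6), where 5.6% of all genes tested were called downward. Spi1 rose with age in wild-type cells by 0.75 (edgeR adjusted p = 0.041, kept in 2 of 6). With age in knockout cells Nr1h3, the gene of the oxysterol receptor LXR alpha, rose by 1.09 (edgeR adjusted p = 0.0468, kept in 1 of 6) and Rxra fell by 0.95 (edgeR adjusted p = 0.0273, kept in 2 of 6). None of the 8 was called in CD11b-high against CD11b-low knockout cells or between the genotypes at 4 weeks.

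**Figure D4:**
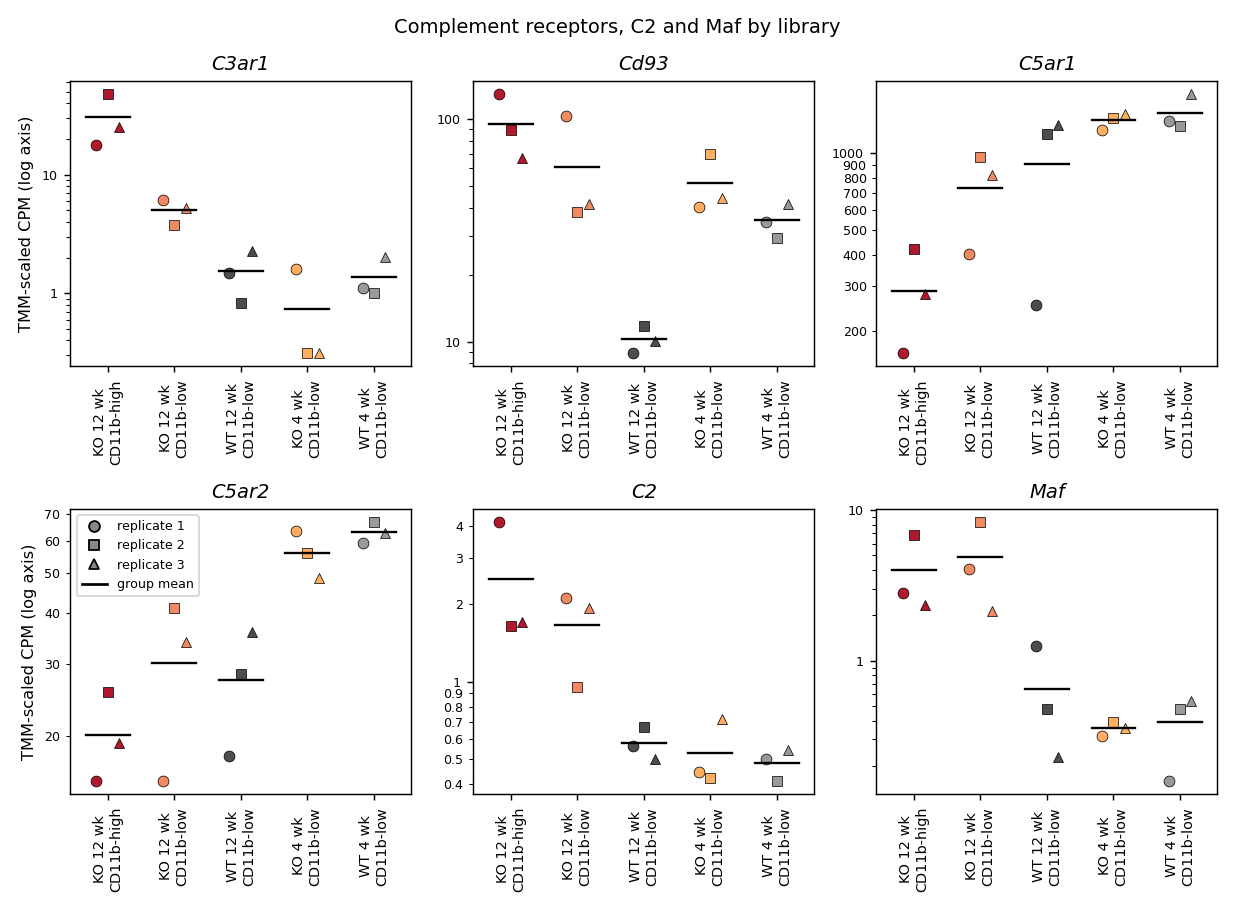
Levels of 4 receptor genes (first 4 panels) and of C2 and Maf in TMM-scaled CPM (vertical axes, logarithmic) by group (horizontal axis), with 1 point per library shaped by replicate number and a line at the group mean. C3ar1 is highest in CD11b-high knockout cells, Cd93 is lowest in wild-type cells at 12 weeks, and Maf is high in both 12-week knockout groups.

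The genes with patterns most like 4 of the members over the 15 libraries were sought by Pearson's r of log2 CPM among 6395 genes of at least 10 CPM on average, as a description of libraries that share their groups. For C1qa they were Thbs1 (0.94), Itgam (0.92), Ccl7 (0.91), Ccl4 (0.89) and Arg1 (0.88). For C3 they were Sgpl1 (0.95), Snd1 (0.93), Rgl1 (0.93), Syk (0.92) and Tlr13 (0.89), and for Cfb Il1a (0.98), Tmem38b (0.97), Slc11a2 (0.96), Cd200r2 (0.96) and Arfgap3 (0.96). For Cfp they were Fpr1 (0.91), Nod1 (0.90), Ruvbl2 (0.90), Tmub1 (0.89) and Cidec (0.88). Thbs1 averaged 56.8 CPM in CD11b-high cells and Il1a ranged over 14.2 to 207 CPM across libraries. The lists of the 4 members had no gene in common. C1qa passed the filter through the CD11b-high libraries alone and held 3 counts or fewer in the other 12. Its list thus mainly ranks genes by how far they were high in the CD11b-high libraries, the gate marker Itgam among them. Among the members, C1qa and C1qb had an r of 0.89 over the 15 libraries and of 0.15 over the 12 CD11b-low libraries, where C1qa held 3 counts or fewer.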

How the data were processed

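RNA of sorted alveolar macrophages was sequenced from libraries made with Clontech SMARTer kits, per the labels. Raw read counts for each gene and library are the values that the authors deposited. The submitters' processing notes name STAR, Subread and featureCounts as tools. Sources used here do not state a genome build, a strand setting or how shared reads were handled. Of 40780 rows in the table, 270 that repeated a gene were removed, and 25100 of the 40510 genes left had a count. Libraries were grouped by genotype, age and CD11b gate from the labels, which call the 3 replicates of a group independent.

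The tests were run with edgeR 4.0.16 under R 4.3.3. The filter filterByExpr (minimum count 10, minimum total count 15) left 13284 genes and at least 99.93% of the counts of each library. Levels are CPM with TMM scaling, and log2 CPM used a prior count of 2. All 15 libraries entered 1 robust quasi-likelihood model of the 5 groups (10 residual degrees of freedom), from which came 7 comparisons with two-sided tests and Benjamini-Hochberg adjustment at 0.05. The procedure was tested on simulated data. Alternatives were DESeq2 1.42.0, its scaling (RLE), no filter, the compared groups alone, the replicate number as a block, and leaving out each library. No pair of replicates agreed within sampling noise.

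The numbers in the sample titles were taken to pair the CD11b-high with the CD11b-low knockout libraries. The correlation of same-numbered deviations from the group means was 0.429, 0.353 and 0.113 for numbers 1 to 3. It was 0.364, 0.085 and 0.205 for CD11b-low knockout against wild-type cells at 12 weeks, which cannot share mice. Differently numbered libraries were not correlated, so the check cannot show that the libraries are paired. No other comparison had all of its correlations above 0.1.

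Coordinates, exon lengths and overlaps are from GENCODE M21 on GRCm38, matched by Ensembl identifier, and upstream sequences are from RefSeq on GRCm38.p6. Named genes were the 6 members, every gene of 5 complement and transcription factor lists past the threshold, and the highest gene of a list with none, and some results under this rule are not reported here. Likeness named 5 genes for each of 4 members. Markers of other cell types were given by their sums. The members and lists were chosen with earlier results of these data known. Intervals and floors cover counting error only, since no molecular identifiers were used in counting as far as the sources used here state.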

Additional observations from a re-analysis of the deposited data

Results flagged for a closer look

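Cfb is given here because its libraries of 12 weeks lay on opposite sides of those of 4 weeks in the genotypes, although the wild-type difference missed the threshold (log2 -0.74, edgeR adjusted p = 0.177, and -0.31 without wild-type replicate 1 of 12 weeks). In knockout CD11b-low cells every library of 12 weeks lay above every library of 4 weeks (39.0 to 56.2 CPM at 12 weeks, against 12.7 to 17.1 CPM at 4 weeks). In wild-type cells every library of 12 weeks lay below every library of 4 weeks (1.85 to 8.67 CPM at 12 weeks, against 9.61 to 9.99 CPM at 4 weeks). The difference between the age effects was tested and came to 2.37 on the log2 scale (edgeR adjusted p = 0.0666), short of the threshold. It passed with DESeq2 (adjusted p = 0.00211) and without wild-type replicate 1 or 3 of 12 weeks (log2 1.94 and 2.75, edgeR adjusted p = 0.0194 and 0.047). These were 2 of the 12 fits that left out 1 library, and the edgeR adjusted p reached 0.217 in the others. How many of all genes tested had such opposite sides with age was not counted. Groups of 3 libraries are too small for a check of single libraries against their group.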

How the results depend on the processing

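Of 42 member results, recomputed 473 times in all under the alternatives, 426 kept their direction and side of the threshold, 22 lost a call, 11 gained one and 14 changed sign, none of them a called result. C3 and Cfb of the 12-week genotype comparison (CD11b-low cells) kept their calls throughout. Causes of changes were not tested. Depth limits C1qa and C1qc outside CD11b-high cells, where most libraries held 3 counts or fewer.

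Genes called moved to 1090 (12-week genotype), 73 (4-week genotype), 533 (CD11b gate), 1395 (age in knockout) and 321 (difference of age effects) with no filter, against 412, 13, 92, 915 and 33. With DESeq2 they were 880, 24, 261, 1698 and 151 in that order. With the compared groups alone they were 189, 4, 18 and 1646 for the first 4, 793 for CD11b-high over wild-type cells (1970) and 1123 with age in wild-type cells (2282). With the replicate block they were 655 for the 12-week genotype, 252 for the CD11b gate, 896 for CD11b-high over wild-type cells and 487 with age in wild-type cells. Outside the CD11b gate the numbers were not taken as a pairing. The block there left C1qb called at 12 weeks (log2 3.31, edgeR adjusted p = 0.000522). With it Cfp of CD11b-high against wild-type cells was not called (edgeR adjusted p = 0.0531). No member was then called with age in wild-type cells (0, C3 at an edgeR adjusted p of 0.0517).

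Members called for the CD11b gate were 4 with no filter and 0 with the compared groups alone, against 2, and for the difference of age effects 1 with no filter and 1 with DESeq2, against 0. Leaving out 1 library gave 230 to 426 genes and 2 to 2 members called for the 12-week genotype, 4 to 15 and 0 to 0 for the 4-week genotype, and 2 to 247 and 0 to 2 for the CD11b gate. It gave 952 to 2099 and 5 to 6 for CD11b-high over wild-type cells, 1068 to 2528 and 0 to 1 with age in wild-type cells, 235 to 1305 and 0 to 2 with age in knockout cells, and 3 to 35 and 0 to 1 for the difference of age effects.

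The changes of sign were small. Cfp with age in knockout cells was 0.031 with RLE scaling and 0.031 with DESeq2, and ran over -0.15 to 0.10 when 1 library was left out. Cfb of CD11b-high against CD11b-low cells ran over -0.063 to 0.25 (below 0 without CD11b-high replicate 1 or CD11b-low replicate 1 or 2). C3 with age in knockout cells ran over -0.21 to 0.043 (above 0 without replicate 3 of 12 weeks or replicate 2 of 4 weeks). C1qa of the 12-week genotype ran over -0.24 to 1.135, and with age in wild-type cells over -0.81 to 0.37, all from 3 counts or fewer per library. The exception in size was C1qc of the 12-week genotype, over -1.50 to 3.75, the lowest without knockout replicate 3, which held 27 of its counts. C1qc at 4 weeks gave no value without wild-type replicate 1, since both groups were then at 0.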
